A study of Mus musculus with 531 samples.

Results

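The genes described here are the transcription factor genes Gata6, Gata4, Sox17, Sox7, Foxa2 and Hnf4a and the receptor gene Pdgfra, 7 of the 22084 genes counted. They were chosen by name, as genes known for their roles in early endoderm, and each was matched to its row through its Ensembl identifier. Reads on genes were counted in 264 single cells of C57Bl/6Babr mouse embryos of embryonic day 4.5 (E4.5, 5 embryos), day 5.5 (E5.5, 1 embryo) and day 6.5 (E6.5, 2 embryos). No embryo was treated or mutated. At E4.5 the trophectoderm had been removed by immunosurgery, at E5.5 the visceral endoderm and extraembryonic ectoderm had been pulled from the epiblast, and at E6.5 extraembryonic tissue had been removed by hand. How the endoderm cells described here came to be picked is not stated. Cells under 50000 reads or under 2000 genes with a read were set aside, which left 217 cells, 75 of them from E4.5 embryos, 59 from the E5.5 embryo and 83 from E6.5 embryos. Levels are given as CPM, the reads of a gene scaled to 1e+06 reads on genes in the same cell or sum of cells, or as log2(CPM + 1) averaged over cells.

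Primitive endoderm arises from the inner cell mass next to the epiblast and gives rise to the visceral endoderm, which surrounds the epiblast and takes up, transports and secretes nutrients. GATA6 acts at the head of this lineage and is followed by PDGFRA, SOX17, GATA4 and SOX7, while FOXA2 and HNF4A are known for the later visceral endoderm, where HNF4A activates genes of secreted proteins. Several of these factors are used again in gastrulation, when cells of the primitive streak form mesoderm and definitive endoderm. By GENCODE annotation of GRCm38, Sox17 lies at chr1:4490931-4497354 on the minus strand, Foxa2 at chr2:148042877-148046969 on the minus strand and Hnf4a at chr2:163506808-163572910 on the plus strand. Pdgfra lies at chr5:75152292-75198215 on the plus strand, Gata4 at chr14:63198922-63271692 on the minus strand and Sox7 at chr14:63943673-63950732 on the plus strand, and Gata6 is on chromosome 18. Gata4 and Sox7 thus share chromosome 14. No other gene with a row in the count table overlaps any of the 7, but annotated genes without a row lie on the opposite strand at Hnf4a (Hnf4aos), Pdgfra (Gm42802), Sox17 (Gm37587) and Gata6 (1010001N08Rik), and as the use of strand in counting is not given, their reads may be among those of these 4 genes.

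Cells were assigned to classes within each stage by clustering on 42 marker genes that include none of the 7. At E4.5 there were 55 endoderm-like cells, from all 5 embryos, and 20 epiblast-like cells. At E5.5 there were 8 endoderm-like and 51 epiblast-like cells. These 8 are exactly the kept cells whose number in the labels is a multiple of 12, so position on the plate and class cannot be told apart. At E6.5 there were 21 endoderm-like cells, 17 of embryo 1 and 4 of embryo 2, and 23 mesoderm-like cells, all of embryo 2. Another 23 cells at E6.5 raised 6 of 9 epiblast and 5 of 8 trophectoderm markers and were led by Wnt7b, Gjb5 and Elf5, which mark extraembryonic ectoderm, so they were left unnamed and are called the Elf5/Wnt7b cluster. The remaining 16 raised no list.

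Within the endoderm-like class, the E4.5 cells held reads of 14 of 15 endoderm markers and had 12 of them in at least 50% of cells, the E5.5 cells 14 of 15, and the E6.5 cells all 15. The E6.5 class held more of the other marker lists than the earlier classes did. Its cells held 4 of 8 trophectoderm markers in at least 50% of cells, and the trophectoderm list averaged 2.14 on the log2 scale against 0.34 at E4.5 and 0.22 at E5.5. They also held 8 of 9 epiblast markers in at least 50% of cells, against 4 of 9 at both earlier stages, with a mean of 4.52 against 3.97 at E4.5 and 2.38 at E5.5, and 4 of 10 mesoderm markers against 0 and 2. The part of these reads in the stage differences was not tested. Transcripts of visceral endoderm were also found across E6.5. Apoa1, Ttr and Afp, which encode secreted carrier proteins, had reads in all 83 kept cells of that stage, with a lowest level of 18.4 CPM for Apoa1 and 11.3 CPM for Ttr. Reads of the 7 genes in E6.5 cells outside the endoderm-like class are therefore given beside the visceral endoderm reads of the same cells.

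At E4.5 Gata6, Gata4, Sox7 and Pdgfra were on in nearly all endoderm-like cells and in few epiblast-like cells. Gata6 was on, meaning at 10 CPM or more, in 53 of 55 endoderm-like cells (96.4%, exact 95% binomial interval 87.5% to 99.6%) and in 1 of 20 epiblast-like cells. Gata4 and Pdgfra were each on in 52 of 55 endoderm-like cells and in 0 of 20 epiblast-like cells, which allows a share of up to 15%. Sox7 was on in 51 of 55 and in 2 of 20. Sox17, Hnf4a and Foxa2 were on in fewer endoderm-like cells, with 38, 35 and 34 of 55. The classes were drawn from the same cells, so these shares are a description and were not tested. By the list with the highest mean, 3 of the 55 endoderm-like cells would be called epiblast-like, and 1 of the 20 epiblast-like cells endoderm-like.

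Of the 20 epiblast-like cells at E4.5, 16 had none of the 7 genes on. In 2 others 1 gene was on, Sox17 at 41.8 CPM in a cell of embryo 2 and Sox7 at 62.4 CPM in a cell of embryo 4. The other 2 had 3 genes on each. A cell of embryo 3 had Gata6 at 21.7 CPM, Sox17 at 20.5 CPM and Hnf4a at 22.9 CPM, and a cell of embryo 4 had Sox7 at 18.9 CPM, Foxa2 at 12.6 CPM and Hnf4a at 94.7 CPM. In both, the epiblast markers were over 3 log2 units above the endoderm markers, at 7.26 against 3.89 in the first and 7.05 against 3.12 in the second.

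**Figure D1:**
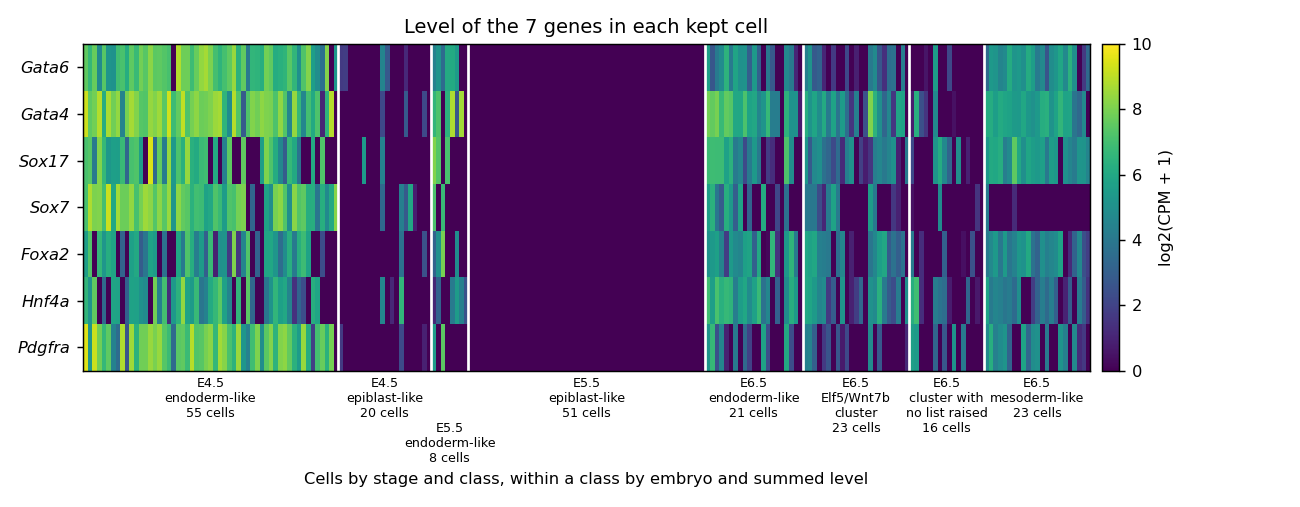
Level of each of the 7 genes (rows) in each of the 217 kept cells (columns), as log2(CPM + 1) from dark (0) to yellow (10), with cells grouped by stage and class. The 55 E4.5 endoderm-like cells are bright in Gata6, Gata4, Sox7 and Pdgfra, the 51 E5.5 epiblast-like cells are at 0 in all 7 rows, and the Sox7 row is dark in 21 of the 23 mesoderm-like cells of E6.5.

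Most E4.5 endoderm-like cells held the genes together. In 36 of the 55 cells (65.5%) 6 or 7 genes were on, in 18 cells all 7, and in no cell fewer than 2. Gata6 and Gata4 were on together in 50 cells, Gata6 alone in 3 and Gata4 alone in 2, and no cell lacked both. All 34 cells with Foxa2 on also had Gata6 and Pdgfra on, but only 2 and 3 of the 55 cells lacked these, so few cells could have shown Foxa2 without them. In the other direction 19 cells had Gata6 without Foxa2 and 18 had Pdgfra without Foxa2. All 35 cells with Hnf4a on had Gata4 on, which only 3 cells lacked. Foxa2 and Hnf4a overlapped less with each other, with both on in 24 cells, Foxa2 alone in 10, Hnf4a alone in 11 and neither in 10.

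SOX17 and SOX7 are related HMG-box factors of the SoxF group, and their genes were not on in the same number of cells. Both were on in 37 of the 55 cells, Sox7 without Sox17 in 14 and Sox17 without Sox7 in 1. All 4 endoderm-like cells with Sox7 off belonged to embryo 4, where Sox7 was on in 15 of 19 cells and its mean level was 5.71 on the log2 scale, against 6.495 to 7.987 in the other 4 embryos. Across the 55 cells, Pearson correlations of log2(CPM + 1) among the 21 pairs ran from -0.01 to 0.34 with a median of 0.13. Over all 217 kept cells, whose classes differ, they ran from 0.45 to 0.82.

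**Figure D2:**
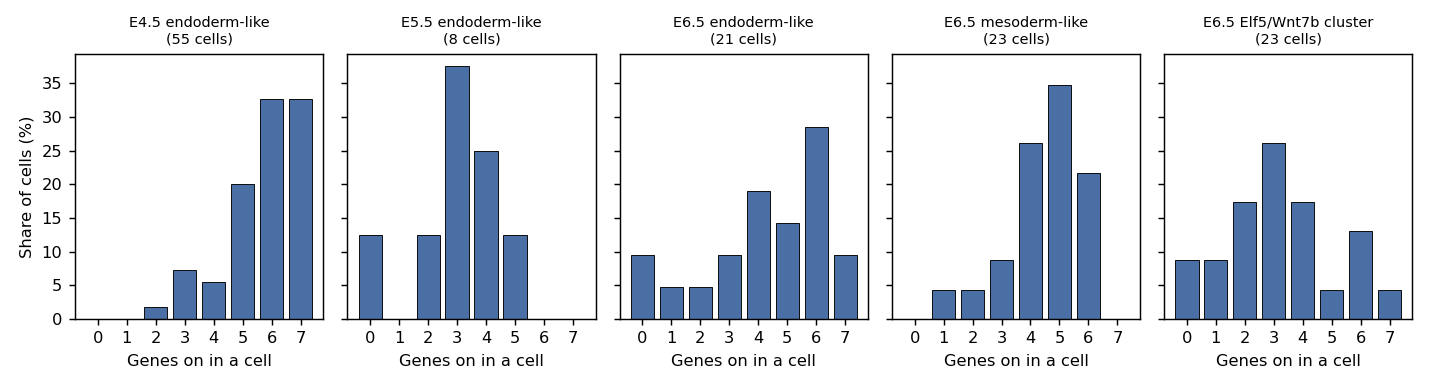
Share of cells (y axis, percent) in which 0 to 7 of the genes were on at 10 CPM or more (x axis), for the endoderm-like cells of each stage and for 2 other E6.5 groups. At E4.5 the bars peak at 6 and 7 genes with 18 cells each, at E5.5 no cell reaches 6, and in the mesoderm-like cells no cell reaches 7.

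Per kilobase of exon, so that genes can be compared, Gata4 and Sox7 were the most abundant of the 7 in E4.5 endoderm-like cells. Reads were summed over the endoderm-like cells of each embryo, and Gata4 stood at 62.2 ± 17.6 CPM per kb (SD, n = 5 embryos) and Sox7 at 60.3 ± 22.9. Gata6 at 22.3 ± 5.29, Sox17 at 20.9 ± 11.4 and Pdgfra at 19.6 ± 3.62 followed, and their order lay within the spread over embryos. Foxa2 at 15.6 ± 6.37 and Hnf4a at 10.3 ± 4.72 were lowest, and these neighbours also did not differ beyond their spread. At E6.5 the order of the means was Gata4 at 14.6 ± 12.4 CPM per kb (SD, n = 2 embryos), Foxa2 at 9.94 ± 6.87 and Hnf4a at 8.05 ± 4.88, with Sox17, Sox7, Gata6 and Pdgfra at 4.71, 3.01, 1.75 and 0.98.

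The change from primitive endoderm to the E6.5 endoderm-like cells was tested on reads summed over these cells in each embryo, with edgeR's quasi-likelihood test and Benjamini-Hochberg adjustment over 13678 genes. Gata6, Sox7 and Pdgfra fell, and the other 4 did not pass the threshold of 0.05. Of all genes tested, 8.06% rose and 2.54% fell towards E6.5, and the median log2 change was -0.17 over all genes and -1.58 over the 7. With limma on mean CPM the split over all genes was more even, at 401 higher and 425 lower against 1103 and 347 with edgeR. The library of E6.5 embryo 2 had a TMM scaling factor of 0.478, against 0.946 to 1.34 in the other 7 embryos. In that embryo 2 of the 4 endoderm-like cells, the deepest, gave 90.1% of the summed reads.

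Pdgfra, the receptor for platelet-derived growth factor A, stood at 233, 221, 208, 173 and 145 CPM in E4.5 embryos 1 to 5 and at 14.2 and 5.43 CPM in E6.5 embryos 1 and 2. The groups do not overlap. It fell by 3.71 ± 0.65 on the log2 scale (standard error, edgeR adjusted p = 0.000402). Sox7 stood at 259, 278, 216, 104.5 and 137 CPM at E4.5 and at 18.9 and 0.96 CPM at E6.5, a fall by 3.99 ± 0.82 (adjusted p = 0.00179). Again no embryo of one stage reached the range of the other, although the 2 E6.5 embryos were far apart. With embryo 1 as the sole E6.5 library the change of Sox7 was -3.16, and with embryo 2 alone it was -6.36. Both of these fits have 1 library at E6.5, whose spread is assumed to be that of the other stages.

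Gata6 stood at 103.6, 167, 160, 181 and 113 CPM at E4.5 and at 19.9 and 2.80 CPM at E6.5. It fell by 3.28 ± 0.71 on the log2 scale (edgeR adjusted p = 0.0032). The call was lost with the embryo number as replicate block, where the change of Gata6 was -3.30 (adjusted p = 0.111). Sox7 and Pdgfra passed in that fit (0.00203 and 0.0146), which leaves 1 residual degree of freedom. Without E6.5 embryo 2, which gave 4 cells, the change was -2.67 with an adjusted p of 0.0563, and with embryo 2 as the sole E6.5 library it was -4.40, so the fall kept its direction while the call was narrowly lost in the first of these fits. When the 2 deepest cells of that embryo were left out, all 3 genes still passed, with changes of -2.72 for Gata6 (adjusted p = 0.00157), -3.62 for Sox7 (0.000181) and -2.62 for Pdgfra (0.00217). Gata4 was at 293, 239, 313, 234 and 137 CPM at E4.5 and at 91.2 and 22.5 CPM at E6.5, a difference of -1.58 ± 0.57 that did not pass (adjusted p = 0.0786). It passed with DESeq2 (adjusted p = 0.0244), with limma on mean CPM over cells (0.0229), and without E6.5 embryo 1 (0.028). It also passed with a class set by marker scores (0.0118), which takes in 29 and 30 cells of the E6.5 embryos and so reaches well beyond the endoderm-like cluster. The difference was smaller, at -0.92 (adjusted p = 0.442), in cells with endoderm markers at least 3 log2 units above epiblast markers, and at -1.19 (adjusted p = 0.405) without E6.5 embryo 2. Sox17 was at 109, 76.1, 190, 72.5 and 51.99 CPM against 32.5 and 12.4, a difference of -1.52 ± 0.65 (adjusted p = 0.148), which was -0.41 without the 2 deepest cells of E6.5 embryo 2.

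Foxa2 and Hnf4a had levels that overlapped between E4.5 and E6.5. Foxa2 was at 46.7, 33.8, 18.7, 57.1 and 28.9 CPM at E4.5 and at 35.1 and 12.1 CPM at E6.5, a difference of -0.09 ± 0.70 on the log2 scale (edgeR adjusted p = 0.958). Hnf4a was at 44.2, 40.1, 82.9, 58.9 and 22.03 CPM at E4.5 and at 55.5 and 22.2 CPM at E6.5, a difference of 0.27 ± 0.65 (adjusted p = 0.839). Both differences are smaller than their standard errors. The sign for Foxa2 turned without E6.5 embryo 2 (0.11) or without E4.5 embryo 4 (0.10), and that for Hnf4a turned with limma (-0.086).

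**Figure D3:**
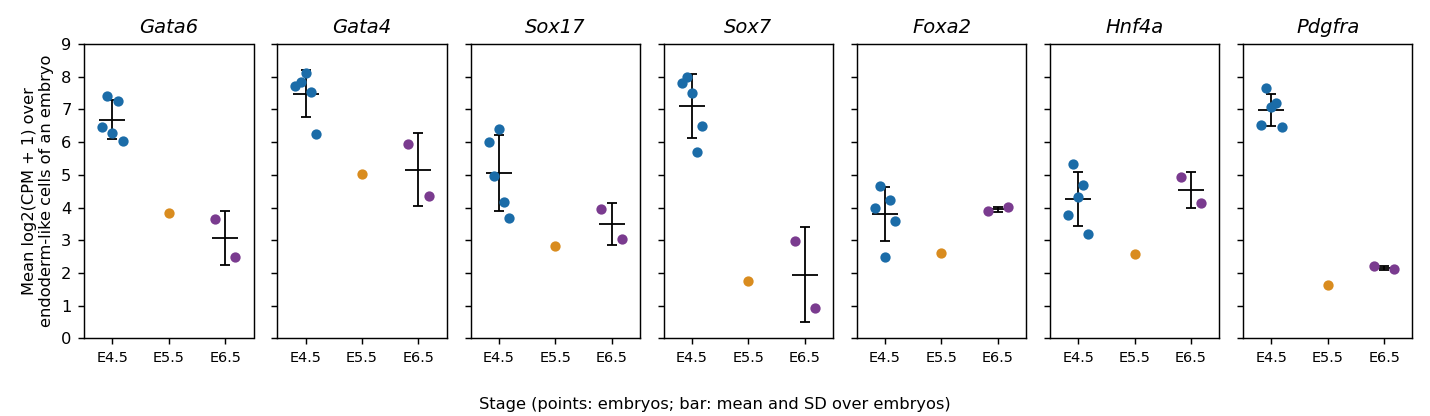
Mean log2(CPM + 1) of each gene over the endoderm-like cells of an embryo (y axis) by stage (x axis), where each point is an embryo and black bars give mean and SD over embryos. Pdgfra lies between 6.47 and 7.66 in the E4.5 embryos and at 2.11 and 2.20 in the E6.5 embryos, while the Hnf4a points of these stages overlap.

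For Gata6, Sox7 and Pdgfra the share of cells was lower too. From E4.5 to E6.5 endoderm-like cells, Gata6 went from 96.4% to 57.1% of cells on (interval 34.02% to 78.2%), Sox7 from 92.7% to 38.1% (18.1% to 61.6%) and Pdgfra from 94.5% to 33.3% (14.6% to 56.97%). For these 3 genes the intervals of the stages do not overlap. Gata4 stayed on in 19 of 21 E6.5 cells (90.5%, interval 69.6% to 98.8%). Hnf4a was on in 17 of 21 (80.95%, 58.1% to 94.6%), Foxa2 in 14 of 21 and Sox17 in 13 of 21, with intervals that overlap those of E4.5. Intervals cover counting error only, and cells of 1 embryo are not replicates. The E6.5 cells were sequenced at least as deeply, with a median of 1378070 reads against 1027780 at E4.5. When every cell was thinned to 50000 reads, with on meaning at least 1 read, the shares fell from 94.5% to 52.4% for Gata6, from 90.9% to 28.6% for Sox7 and from 87.3% to 38.1% for Pdgfra.

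In the 21 E6.5 endoderm-like cells Gata4 was on in all but 2, and these 2 had none of the 7 genes on. Gata6 was under 10 CPM in 7 of the 19 cells with Gata4 on, compared with 2 of 52 at E4.5, and over all 21 cells it had at least 1 read in 17. Gata6 and Hnf4a were on together in 12 cells, Hnf4a alone in 5 and Gata6 alone in 0, where E4.5 had 34, 1 and 19 cells. These counts depend on the limit of 10 CPM. With at least 1 read, the E6.5 counts were 16 with both, 2 with Hnf4a alone and 1 with Gata6 alone, and those of E4.5 were 41, 1 and 12. The difference between the stages in these pairs was not tested. Pdgfra was on in 7 cells, all of which had Hnf4a on. Pearson correlations among the 21 pairs ran from 0.07 to 0.83 in these cells, highest for Gata4 and Hnf4a, over cells that differ in depth and in trophectoderm reads.

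**Figure D4:**
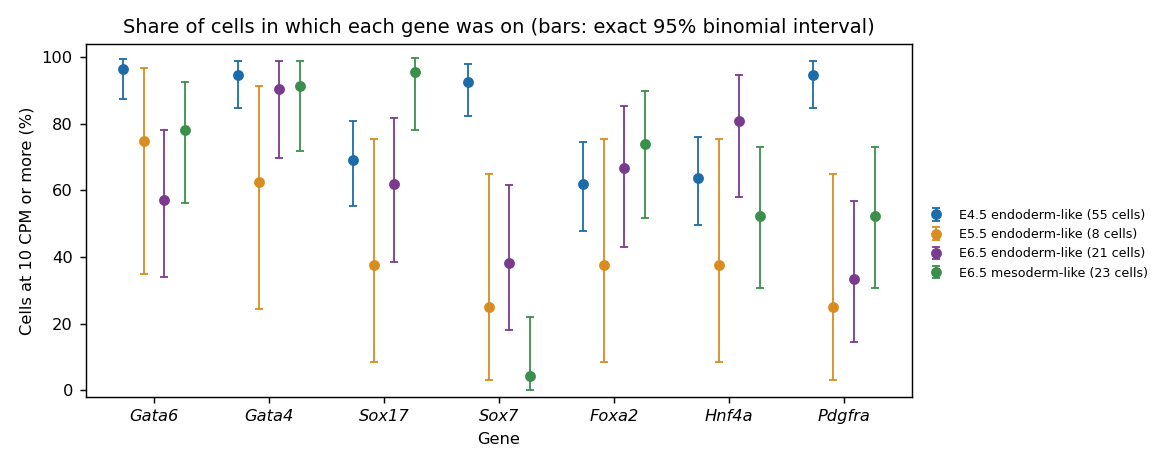
Share of cells (y axis, percent) in which each gene was at 10 CPM or more, with exact 95% binomial intervals, for endoderm-like cells at E4.5 (blue), E5.5 (orange) and E6.5 (purple) and mesoderm-like cells at E6.5 (green). Sox7 and Pdgfra drop from above 90% at E4.5 to 38.1% and 33.3% at E6.5, and Sox7 is on in 4.35% of mesoderm-like cells.

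At E5.5 none of the 7 genes was found in epiblast-like cells at this depth. In the 51 epiblast-like cells, 0 of 79265663 reads fell on any of the 7 genes, so each was on in 0 of 51 cells, which allows a share of up to 5.88%. The 8 endoderm-like cells had a median of 1806100 reads and 4223.5 detected genes, fewer than the 7156 of E4.5 endoderm-like cells. Between 0 and 5 of the 7 genes were on in a cell, with a median of 3.

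Gata6 was on in 6 of the 8 E5.5 cells, between 10.3 and 68.7 CPM, and Gata4 in 5, between 84.1 and 435 CPM. Sox17 was on in 3 cells at 139, 158 and 273 CPM and had no reads in the other 5. Sox7 and Pdgfra were each on in the same 2 cells and at 0 in the other 6, with Sox7 at 110 and 144 CPM and Pdgfra at 179 and 45.1 CPM in cells 48 and 60. Foxa2 was on in 3 cells, at 245 CPM in cell 48, and Hnf4a in 3 cells at 16.3 to 44.02 CPM. Cell 24 had none of the 7 on although its endoderm markers averaged 7.01 on the log2 scale, and it had the fewest detected genes of the 8, 2222.

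Summed over these 8 cells, Gata6 was at 24.03 CPM, Gata4 at 162, Sox17 at 55.3, Sox7 at 29.3, Foxa2 at 35.8, Hnf4a at 12.8 and Pdgfra at 26.2 CPM. Against E4.5, of the 7 genes only Pdgfra passed, with a fall by 2.59 ± 0.82 on the log2 scale (edgeR adjusted p = 0.0421). That call was lost without any 1 of E4.5 embryos 1 to 4 (adjusted p 0.0638 to 0.0791), without the filter on low counts (0.0554) and in cells with endoderm markers at least 3 log2 units above epiblast markers (0.213). Sox7 and Gata6 differed by -2.44 ± 1.01 (adjusted p = 0.123) and -2.30 ± 0.92 (adjusted p = 0.107), and both passed with DESeq2 (0.0362 and 0.0185) and without the 2 deepest cells of E6.5 embryo 2 (0.0222 and 0.0239). Gata4, Sox17, Foxa2 and Hnf4a differed by -0.26, -0.51, 0.25 and -1.64 and did not pass. In this comparison 8.28% of all genes were lower and 3.18% higher, and the median over all genes was -1.32, beside which the change of Pdgfra is to be read. With 1 embryo at E5.5, its spread was assumed to be that of the other stages. Stage and label prefix, which may mark a plate, cannot be told apart in any of these comparisons.

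Between E5.5 and E6.5 none of the 7 genes passed edgeR's test, although of all genes 7.33% rose and 1.18% fell in that step. Without adjustment, 0 of the 7 had p under 0.05, and DESeq2 also called none. On simulated counts edgeR recovered 21.5% of 16-fold and 0% of 4-fold changes in this comparison, so missing calls say little about the 7 genes. Hnf4a showed the largest positive difference, 1.91 ± 1.06 (edgeR adjusted p = 0.272), beside a median of 1.28 over all genes. Sox7 differed by -1.55 ± 0.90 (adjusted p = 0.296) and passed only without E6.5 embryo 1.

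The mesoderm-like cells of E6.5 held 6 of the 7 genes and almost none of Sox7. The class was named for markers raised over the other E6.5 cells (8 of 10 mesoderm markers), and its endoderm markers were nonetheless high. All 15 were held in at least 50% of its cells with a mean of 6.11 on the log2 scale, beside 5.28 for mesoderm and 5.86 for epiblast markers. By the list with the highest mean, 15 of the 23 cells would be called endoderm-like, 5 mesoderm-like and 3 epiblast-like, so the class is mixed by its markers. Sox17 was on in 22 of 23 cells (95.7%, interval 78.1% to 99.9%), Gata4 in 21, Gata6 in 18, Foxa2 in 17, and Hnf4a and Pdgfra in 12 each. Sox7 was on in 1 cell (4.35%, interval 0.11% to 21.9%) at 15.9 CPM, with 6 reads in all 23 cells. The median cell had 5 genes on. Median levels over cells were 52.8 CPM for Gata4, 38.2 for Sox17, 30.6 for Gata6, 20.8 for Foxa2, 16.4 for Pdgfra and 10.1 for Hnf4a.

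These cells carried visceral endoderm reads, at 1243 CPM summed over Apoa1, Ttr, Afp, Amn and Cubn, against 15272 and 4942 CPM in the endoderm-like cells of embryos 1 and 2. The reads of each gene were therefore set against these visceral endoderm reads in the same cells. Per 1000 visceral endoderm reads, Gata6 had 30.7 reads in mesoderm-like cells and 1.31 and 0.57 in endoderm-like cells of embryos 1 and 2. Sox17 had 37.3 against 2.13 and 2.50, Gata4 34.97 against 5.97 and 4.56, and Foxa2 21.5 against 2.30 and 2.44. Pdgfra had 11.8 against 0.93 and 1.10.

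Within embryo 2, the ratio in mesoderm-like cells was thus 54.3-fold that in endoderm-like cells for Gata6, 14.9-fold for Sox17, 10.8-fold for Pdgfra, 8.81-fold for Foxa2 and 7.67-fold for Gata4. For Hnf4a it was 1.78-fold and for Sox7 1.498-fold, the latter on 6 and 12 reads. Visceral endoderm reads stood at 4942 CPM in the endoderm-like and 1243 CPM in the mesoderm-like cells of embryo 2. A gene at equal CPM in both would thus also have a higher ratio in mesoderm-like cells, and the ratio was not computed for other genes. The folds also depend on the 2 deepest endoderm-like cells of embryo 2. Against the other 2 cells alone, the fold was 11.5 for Gata6, 3.97 for Gata4, 3.78 for Foxa2, 2.63 for Sox17, 1.90 for Pdgfra, 1.85 for Hnf4a and 0.264 for Sox7. Against embryo 1 it was 23.5 for Gata6 and 17.5 for Sox17. Per visceral endoderm read, the 6 genes other than Sox7 were above the endoderm-like cells in all 3 of these comparisons, while Sox7 was at 0.29 reads per 1000 against 1.24 in embryo 1 and 0.19 in embryo 2, or 1.10 in embryo 2 without its 2 deepest cells. In summed CPM the order differed. Gata6 at 38.2 CPM and Sox17 at 46.4 CPM in mesoderm-like cells were above both endoderm-like values, Gata4 at 43.5 CPM lay between 91.2 and 22.5, Foxa2 at 26.7 CPM between 35.1 and 12.1, Pdgfra at 14.7 CPM was close to 14.2 in embryo 1, and Hnf4a at 9.93 CPM was below 55.5 and 22.2. All mesoderm-like cells come from 1 embryo and were compared with 4 endoderm-like cells of it, so these ratios have no replicate check. By their numbers in the labels, read as wells of a plate with 12 columns, all 23 lie in columns 10 to 12, where 1 of the other kept cells of embryo 2 lies, so class and plate position can hardly be told apart here either. The 5 visceral endoderm genes for this ratio were chosen after the data had been seen. All 5 are also among the endoderm markers used to cluster and name the classes. Endoderm-like cells were thus drawn as high in these reads, which lowers their ratios, so the ratios are a description and no test of the class difference.

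In the Elf5/Wnt7b cluster the same ratios lay closer to those of the endoderm-like than of the mesoderm-like cells for every gene but Sox7. Per 1000 visceral endoderm reads, Gata6 had 1.03 and 2.37 reads in embryos 1 and 2, Sox17 3.34 and 1.84, Pdgfra 0.99 and 0.67, and Hnf4a 4.39 and 4.07. Gata4 had 7.91 and 12.2, Foxa2 4.33 and 4.87, and Sox7 3.02 and 1.09, each above the endoderm-like value of the same embryo. Gata4 was on in 17 of these 23 cells and Pdgfra in 3. Of the 16 cells that raised no list, 8 had none of the 7 genes on, and the most frequent was Hnf4a with 5 cells. Their ratios differed widely between the embryos, with Hnf4a at 26.6 and 2.51 and Pdgfra at 11.999 and 4.52 reads per 1000 in embryos 1 and 2, so in embryo 1 both lay above the mesoderm-like cells.

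**Figure D5:**
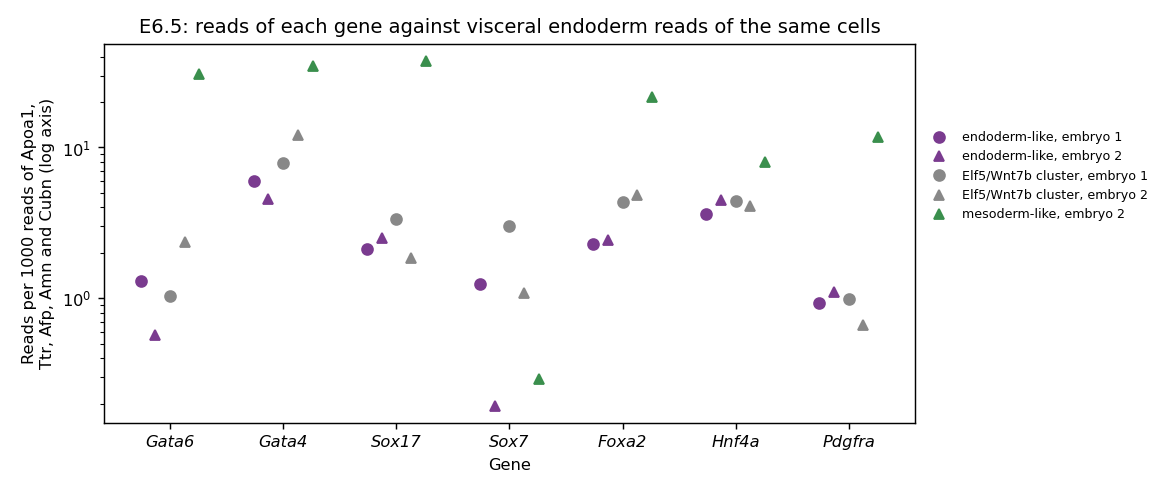
Reads of each gene per 1000 reads of the visceral endoderm genes Apoa1, Ttr, Afp, Amn and Cubn (log axis) in E6.5 cells, summed by class and embryo, with circles for embryo 1 and triangles for embryo 2. The mesoderm-like cells (green) lie above the endoderm-like (purple) and Elf5/Wnt7b (grey) cells for every gene but Sox7, where they are at 0.29 between the endoderm-like values of 1.24 and 0.19, and the 16 cells that raised no list are not drawn.

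All 7 genes were on in over 60% of E4.5 endoderm-like cells. At E5.5 Gata6 and Gata4 were on in over 60% of the 8 cells and the other 5 genes in 25% to 37.5%, with intervals as wide as 8.52% to 75.5%. At E6.5 endoderm-like cells had Gata4, Hnf4a, Foxa2, Sox17 and Gata6 on in over 50% of cells and Sox7 and Pdgfra in fewer, although with at least 1 read as the limit both were found in 12 of the 21 cells, and mesoderm-like cells had all but Sox7 on in over 50%.

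Among 28 other regulators of endoderm, 24 could be tested. In E6.5 against E4.5 endoderm-like cells, 4 rose and 4 fell, beside 8.06% of all genes that rose and 2.54% that fell. Lhx1, a LIM homeobox gene of the anterior visceral endoderm, was between 2.85 and 16.6 CPM in the E4.5 embryos and at 55.1 and 73.9 CPM at E6.5, and Otx2, a homeobox gene active in the same tissue, was between 0 and 14.7 CPM and then at 45.2 and 72.4 CPM. Lhx1 rose by 4.16 ± 0.66 on the log2 scale (edgeR adjusted p = 0.000154) and Otx2 by 4.38 ± 0.85 (adjusted p = 0.00118). The ligand gene Bmp2 had 12 reads at E4.5 and 1286 at E6.5 (adjusted p = 0.00416). Foxa1, a paralogue of Foxa2, had 0 reads at E4.5 and 91 and 5 reads in E6.5 embryos 1 and 2, which are 2.51 and 0.40 CPM (adjusted p = 0.0133).

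Among those that fell were Hhex, Foxq1 and Sall4. Hhex, a homeobox gene, went from 17.4 to 62.6 CPM in the E4.5 embryos to 3.64 and 0.64 CPM and fell by 3.99 ± 0.92 on the log2 scale (edgeR adjusted p = 0.00512). Foxq1, a forkhead gene, fell by 3.43 ± 1.05 (adjusted p = 0.0356) and the zinc finger gene Sall4 by 2.33 ± 0.56 (adjusted p = 0.00711).

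At E5.5 the same list had 4 rises and 3 falls against E4.5, beside 3.18% of all genes that rose and 8.28% that fell. These tests set 1 embryo, with a spread assumed from the other stages, against 5, and the median log2 change over all genes was -1.32. Lhx1 stood at 234 CPM, Otx2 at 163, Nodal, a TGF-beta ligand gene, at 140 and Foxa1 at 26.9 CPM, the last at least 580-fold higher than at E4.5 by a limit of 3 reads over that stage. Lhx1 rose by 5.40 ± 0.75 (edgeR adjusted p = 7.08e-05), Otx2 by 5.19 ± 0.96 (adjusted p = 0.00143), Nodal by 3.15 ± 0.97 (adjusted p = 0.036) and Foxa1 with an adjusted p of 0.00206. Fgfr2, a receptor for fibroblast growth factors, had 0 reads in the 8 cells and was at least 240-fold lower (adjusted p = 0.000693). Pdgfa, which encodes the ligand of PDGFRA, was between 27.2 and 159 CPM in the E4.5 embryos and had 2 reads at E5.5, 375-fold lower with a counting interval of 103.7-fold to 3094-fold (adjusted p = 0.00219). From E5.5 to E6.5 Fgfr2 (adjusted p = 0.00664) and Pdgfa (adjusted p = 0.00813) were higher again, at 16.1 and 21.6 CPM for Pdgfa, and Hhex fell by 4.25 ± 1.06 (adjusted p = 0.0169).

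The genes whose levels followed each member most closely over the 217 kept cells were found among 12103 genes, as a description across cells of mixed class and depth. Gata6 was closest to Gata4 (r = 0.82), Flrt3 (0.81) and Cubn (0.80), and Gata4 to Cubn (0.86) and Dab2 (0.83). Sox7 and Pdgfra shared their closest pair, the basement membrane genes Lama1 (0.81 and 0.78) and Col4a2 (0.78 and 0.77), followed by Fam198b (0.78) for Sox7 and Tent5a (0.76) for Pdgfra. Sox17 was closest to Rcan1 (0.68), Gata6 (0.66) and Lgmn (0.65). Foxa2 was closest to Dkk1 (0.67), Cubn (0.65) and Amot (0.65), and Hnf4a to Gata4 (0.69), Cubn (0.68) and Amot (0.68). Within the 55 E4.5 endoderm-like cells these correlations were lower, for example 0.05 for Foxa2 and Amot and 0.59 for Sox7 and Lama1.

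Of the 7 genes, 3 had promoter sequence in the RefSeq table for GRCm38.p6. The word AGATAA, known for GATA factors, was found in 2 of their 6 windows, at the upstream start of Hnf4a and, 183 bases before it, at the Foxa2 start of chr2:148045415-148045714 on the minus strand. The other start of Hnf4a, both other starts of Foxa2 and that of Pdgfra did not hold it. The Hnf4a window is shown as an example. The sequence runs from 250 bases before that start to 50 after it, on the plus strand of chromosome 2, with capitals for the word AGATAA, searched on both strands. The upstream start at chr2:163506607-163506906 holds AGATAA once, 52 bases before the start.
Hnf4a upstream start: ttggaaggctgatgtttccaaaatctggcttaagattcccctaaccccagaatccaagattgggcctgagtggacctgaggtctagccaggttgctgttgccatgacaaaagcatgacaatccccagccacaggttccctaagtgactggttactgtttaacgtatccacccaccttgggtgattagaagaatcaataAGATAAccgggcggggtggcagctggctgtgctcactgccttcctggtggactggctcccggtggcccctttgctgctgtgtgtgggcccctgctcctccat
AGATAA was found in 11.2% of all 32851 promoter windows. Reads counted per gene do not tell the starts apart, and a match describes letters only.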

How the data were processed

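Single cells were prepared by scM&T-seq, which reads the RNA and the methylated DNA of 1 cell, and only the RNA was used here. The authors deposited raw counts of reads per gene in 264 cells, made per the labels with HISAT2 2.1.0 and featureCounts on GRCm38. The gene annotation and the use of strand in counting are not given in the sources used here. Groups came from the stage and embryo in each label. The labels name 5 embryos at E4.5 and the study's methods give a smaller number, and the labels were followed. Cells are not replicates, so the embryo was the unit of every test. That embryos are separate animals is taken from the labels.

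Cells needed 50000 reads and 2000 genes. Cells were clustered within each stage (Ward) on 42 markers, and a cluster was named for the list with most genes raised by 1 log2 unit, with at least 3 raised, unless its top 10 genes held more markers of another list. Doublets were not called. Reads were summed over endoderm-like cells per embryo and fitted for 8 embryos together with edgeR 4.0.16 (TMM, quasi-likelihood, Benjamini-Hochberg, threshold 0.05). DESeq2 1.42.0 and limma 3.58.1 were alternatives, run in R 4.3.3. Other steps used Python 3.11.15, numpy 2.4.6, pandas 2.3.3, scipy 1.17.1 and matplotlib 3.10.9. Total reads per cell before filtering ran from 477 to 2632015 at E4.5, from 582 to 3772599 at E5.5 and from 32 to 8904445 at E6.5. Levels use a pseudocount of 1, and a limit for 0 counts is 3 counts. Intervals are exact binomial at 95%.

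The members, the 28 regulators and the markers were chosen with earlier results of these data known. All 7 members are described, the regulators named are those called, and the genes named as most like each member are among the 3 with the highest Pearson r. A regulator that met these rules is not reported here. On simulated counts with 200 genes changed, edgeR recovered 55.5% of 16-fold changes and 6.5% of 4-fold changes for E6.5 against E4.5, among 12799 and 12791 genes, 36.0% and 5.5% for E5.5 against E4.5 (12818 and 12805 genes), and 21.5% and 0% for E6.5 against E5.5 (12799 and 12791 genes). Embryo numbers do not pair the stages, as embryos of different stages are taken to be separate animals. Deviations of numbers 1 and 2 from their stage means correlated at 0.016 and 0.025. With 2 embryos at E6.5 these values are not independent of each other and decide nothing.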

Additional observations from a re-analysis of the deposited data

Results flagged for a closer look

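Mean levels, summed levels and shares of cells with a gene on were compared between the 5 E4.5 embryos. In 4 of 33 groups of values tested, all of them shares, 1 embryo stood apart from the other 4. The rate of about 1 in 20 that chance gives does not apply to them, since the other 4 embryos all stood at exactly 0% or 100% and a single cell is then enough. Sox7 was on in 78.9% of the endoderm-like cells of embryo 4 and in 100% of those of each other embryo. In epiblast-like cells of embryo 4, Sox7 was on in 40% and Foxa2 in 20%, which are 2 cells and 1 cell of 5, against 0% in the others. Gata6 was on in 25% of the epiblast-like cells of embryo 3, 1 cell of 4, against 0% in the others.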

How the results depend on the processing

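Calls over all genes depended on the embryos and the tool. E6.5 against E4.5 gave 1450 calls, 826 with limma, 659 without the 2 deepest cells of E6.5 embryo 2 (a choice made after seeing the data) and 288 to 2021 when 1 embryo was left out (lowest without E6.5 embryo 2). E5.5 against E4.5 gave 1568 calls, 3215 with DESeq2 and 605 in cells with endoderm markers at least 3 log2 units above epiblast markers (a choice made after seeing the data). E6.5 against E5.5 gave 1164 calls, 2899 with DESeq2, 538 with limma, 259 in those cells, and 707 to 1888 when 1 embryo was left out. The embryo numbers do not pair the stages, and with the embryo number as replicate block, which leaves 1 residual degree of freedom, E6.5 against E4.5 gave 261 calls.

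The sign turned for Foxa2 in E6.5 against E4.5 (0.65 in the marker-separated cells, 0.19 without those 2 cells, and a range of -0.33 to 0.11 when 1 embryo was left out) and for Hnf4a (-0.18 with classes by marker score, -0.086 with limma). Requiring 200000 reads and 4000 genes, which left 4 E5.5 cells, turned it for Sox17 (0.55) and Foxa2 (-1.88) in E5.5 against E4.5, and for Foxa2 (1.86) and Pdgfra (0.16) in E6.5 against E5.5, where Foxa2 also turned in the marker-separated cells (0.63) and Sox17 without the 2 deepest cells (0.096). The cause was not tested. None of these differences passed the threshold.

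The number of genes on in at least 50% of cells was 7 at E4.5, 2 at E5.5, 5 at E6.5 and 6 in mesoderm-like cells. When 1 read sufficed it was 4 at E5.5 and 7 at E6.5, where Sox7 and Pdgfra then passed 50%. When 50 CPM was required it was 4 at E4.5 and 1 in each of the other classes. From E4.5 to E6.5 the mean level dropped for 5 of the 7 genes, and for 5 or 6 when 1 embryo was left out. The E5.5 values come from 8 cells of 1 embryo.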
